A study of Mus musculus with 36 samples.

Results

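The histone variant H2A.Z is placed in chromatin and taken out again by a small set of remodelling complexes, and the 10 genes described here, Srcap, Ep400, Vps72, Znhit1, Yeats4, Dmap1, Ruvbl1, Ruvbl2, Anp32e and Ino80, encode their ATPases, histone-binding subunits and chaperone. They were chosen by name for that role. In the RNA counts 9 of the 10 were present by symbol, of 24060 gene symbols in all. Srcap was not found there by its symbol or its RefSeq synonyms, so its RNA was not analysed here. A peak of H2A.Z within 1000 bp of the gene's own start site was annotated to 7 of the 10. In the whole series 11646 genes had such a peak, and 12204 of the 20213 consensus peaks lay within that distance of a start. Srcap, Znhit1 and Ruvbl2 had none under their own names, although a peak annotated to a neighbouring gene lay over the start of each.

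The study measured RNA and H2A.Z occupancy in the hippocampus of C57BL/6J mice, to compare H2A.Z binding and transcript levels at rest and after learning at both ages. Young mice were 2.5 months old and old mice 15.5 months old, and at each age mice were either naive or fear conditioned. Conditioning was 1 session of 5 min with 3 foot shocks of 0.5 mA lasting 2 s each, and brains were frozen 30 min after training. The labels name no genetic change or drug in any group, and do not say how the naive mice were handled. Of 36 libraries, 12 were RNA, 12 were chromatin immunoprecipitated for H2A.Z and 12 were input chromatin, with 3 libraries in each of the 4 groups for each kind. The labels do not say that the libraries of a group came from separate animals, so the p-values below measure the spread between these libraries, which may be technical.

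H2A.Z replaces canonical H2A in nucleosomes, often those flanking active start sites. SRCAP and p400 (the product of Ep400) are the ATPases of separate complexes that exchange an H2A-H2B dimer for H2A.Z-H2B. YL1 (the product of Vps72), GAS41 (the product of Yeats4), DMAP1 and the paired AAA+ ATPases RUVBL1 and RUVBL2 are subunits of both complexes, and ZNHIT1 belongs to the SRCAP complex. ANP32E is a chaperone that takes H2A.Z out of the nucleosome, and the INO80 complex, which also contains RUVBL1 and RUVBL2, has been described as removing H2A.Z. In the hippocampus H2A.Z is known as a variant that restrains memory formation and leaves many promoters soon after training.

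The promoters of Dmap1, Anp32e and Yeats4 are shown because their H2A.Z peaks had the lowest false discovery rates for training, in young mice for Dmap1 and in old mice for the other genes. Vps72, whose peak had the lowest of all, is named without a sequence. Each runs 5′ to 3′ along the gene's strand, from 250 bases before the RefSeq start to 50 bases after it on GRCm38.p6, and all 300 bases of each lay under the gene's H2A.Z peak. Dmap1 is at chr4:117682176-117682475 on the minus strand, Anp32e at chr3:95929007-95929306 on the plus strand and Yeats4 at chr10:117224458-117224757 on the minus strand. Capitals mark the exact matches, on either strand, of 7 short motifs that are spelled out after the sequences.
Dmap1: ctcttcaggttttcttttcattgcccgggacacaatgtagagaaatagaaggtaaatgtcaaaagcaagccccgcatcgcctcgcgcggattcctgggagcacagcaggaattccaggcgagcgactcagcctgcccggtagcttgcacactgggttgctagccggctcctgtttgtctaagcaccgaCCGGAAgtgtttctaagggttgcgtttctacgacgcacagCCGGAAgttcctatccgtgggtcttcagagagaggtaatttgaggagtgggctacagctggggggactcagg
Anp32e: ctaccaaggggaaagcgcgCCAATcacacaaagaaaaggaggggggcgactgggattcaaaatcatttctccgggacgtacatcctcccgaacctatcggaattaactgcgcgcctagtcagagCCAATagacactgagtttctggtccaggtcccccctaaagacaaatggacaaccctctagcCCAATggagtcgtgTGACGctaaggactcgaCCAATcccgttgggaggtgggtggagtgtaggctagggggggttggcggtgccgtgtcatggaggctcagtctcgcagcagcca
Yeats4: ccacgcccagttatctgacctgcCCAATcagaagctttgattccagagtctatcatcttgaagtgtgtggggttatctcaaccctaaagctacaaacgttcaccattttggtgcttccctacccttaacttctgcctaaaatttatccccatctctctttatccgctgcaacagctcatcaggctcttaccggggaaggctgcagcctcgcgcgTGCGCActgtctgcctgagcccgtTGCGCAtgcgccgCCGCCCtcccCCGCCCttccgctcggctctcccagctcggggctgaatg

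In these windows Dmap1 held 2 ETS cores (CCGGAA), starting 62 and 22 bases before the start. Anp32e held 4 CCAAT boxes, starting at 231, 126, 65 and 34 bases before the start, with a CRE core (TGACG) between the last pair. At least 4 CCAAT matches were found in 1.06% of the 32851 mouse promoters of the same length. Yeats4 held 2 NRF1 cores (TGCGCA) at 36 and 12 bases before the start, 2 Sp/Klf boxes (GGGCGG, here on the opposite strand) just after the start, and 1 CCAAT box further upstream. Over the 9 members with a promoter sequence, the first listed promoter of a gene being used, the Sp/Klf box was found in 6, against 35.7% of all promoters. CCAAT was found in 5 of 9 (37.4% of all promoters), the CRE core in 3 (20.8%), and the ETS core, the NRF1 core and the TATA box (TATAAA) in 1 each (14.9%, 7.76% and 13.6%). The YY1 core (AAGATGG) was found in 0 of the 9, against 6.34% of all promoters. Znhit1 has a second listed promoter with 2 ETS cores, 2 NRF1 cores and 1 YY1 core, so using it would add 1 member to each of these counts. No motif was common to all 9 members. Their median GC content was 56.3%, against 52.7% for all promoters, and their median number of CpG was 16, against 7. A match of letters is a description of the window and not a measured binding site.

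RNA of the members was present in every library. Total counts ran from 9410843 to 13350561 per library, all 9 members passed the filter on low counts with 14405 genes in all, and the lowest mean count of a member over the 12 libraries was 203.2. Levels are given below in CPM (counts scaled to the size of the library, with TMM factors), by library in the order of the labels' sample numbers. They are compared within a gene only, because no transcript lengths were at hand. The markers of dentate granule cells and of CA1 and CA3 neurons were detected in every group, with summed levels of 335 to 463 CPM for the first list and 492 to 641 CPM for the second. Markers of the choroid plexus, a secretory tissue next to the hippocampus, summed to 201 to 3160 CPM in naive and 63 to 2240 CPM in conditioned libraries of young mice, and to 174 to 1880 CPM and 72.5 to 164 CPM in those of old mice. The tissue is bulk, so fewer cells of a type and less RNA per cell cannot be told apart.

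No member's RNA passed the test in any comparison. Over the 12 libraries the highest exceeded the lowest by 1.18-fold for Ep400, the narrowest range, and by 1.4-fold for Ruvbl2, the widest. Such ranges were not taken over all genes. The summed level of the 9 members was 460 to 461 CPM in young naive, 443 to 467 CPM in young conditioned, 451 to 486 CPM in old naive and 445 to 451 CPM in old conditioned libraries. When each gene's 4 groups were put in order of their means, neighbouring groups overlapped at every step but 1: Anp32e in young conditioned libraries lay above young naive ones, by 1.13-fold. These steps were not counted over all genes, of which 7.14% had all young conditioned libraries above all young naive ones.

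**Figure D1:**
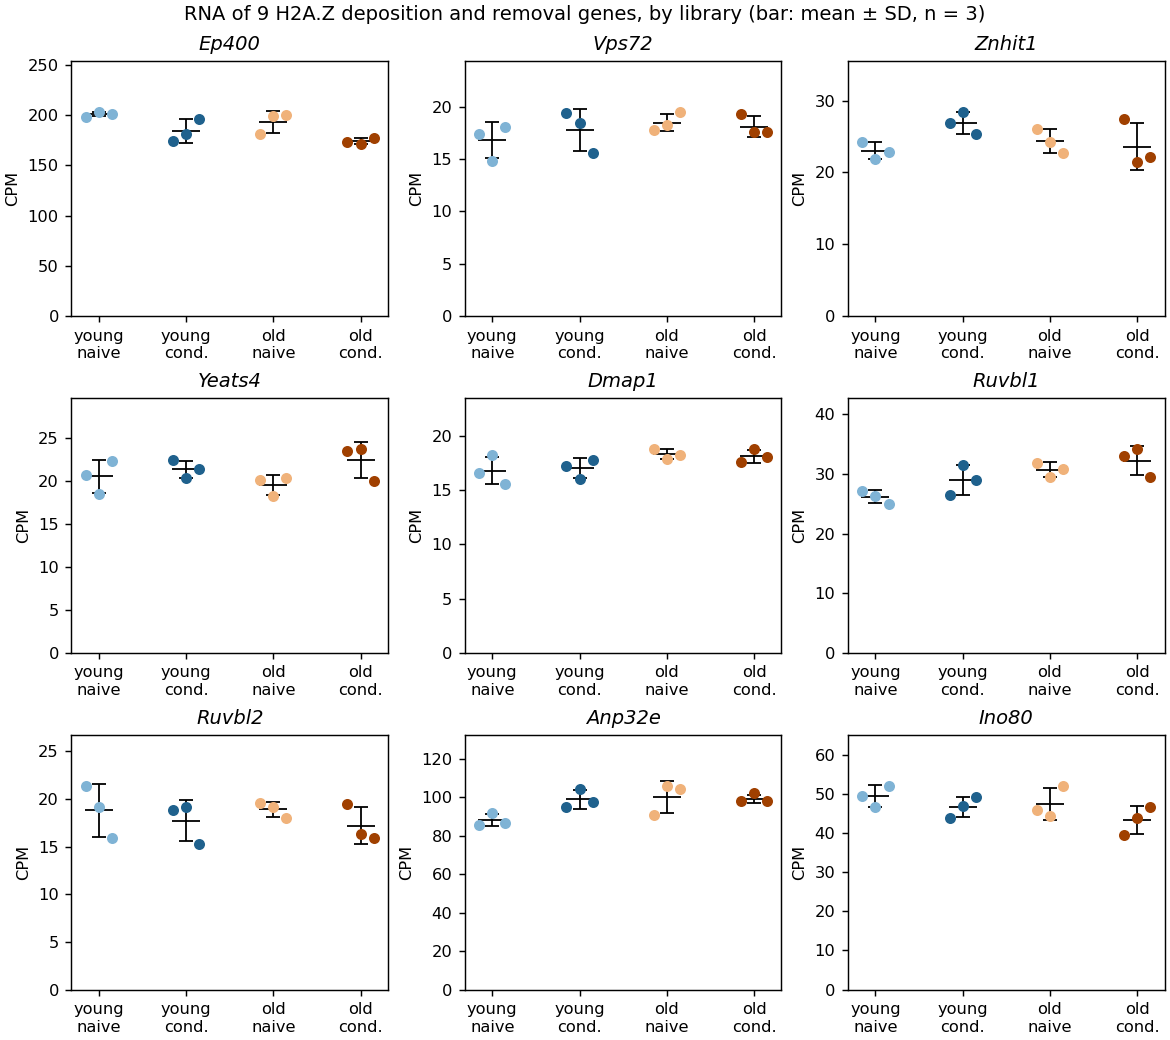
RNA level in CPM (vertical axes, from 0) of the 9 members in the 12 hippocampal libraries, by group (horizontal axes), with points for single libraries and black bars for the mean ± SD (n = 3). Ep400 is lower in all 3 conditioned than in all 3 naive libraries at each age, and most other groups overlap. Of all tested genes 5.64% in young and 6.22% in old mice are likewise lower.

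Among the ATPases that deposit H2A.Z, Ep400 was measured and Srcap was not. Ep400 stood at 198, 203 and 201 CPM in young naive libraries and at 174, 181 and 196 CPM in young conditioned libraries. In old naive libraries it stood at 181, 199 and 200 CPM, and in old conditioned libraries at 173, 171 and 177 CPM. At each age every conditioned library was below every naive library. Of all tested genes 5.64% did the same in young mice and 6.22% in old mice. Genes that did so at both ages were not counted. The log2 change with training was -0.13 in young mice (SE 0.0593, 95% interval -0.25 to 0, adjusted p = 0.745 by edgeR's quasi-likelihood test with Benjamini-Hochberg adjustment over all genes). In old mice it was -0.15 (SE 0.0594, 95% interval -0.28 to -0.03, edgeR adjusted p = 0.695). Averaged over both ages it was -0.14 (SE 0.042, 95% interval -0.23 to -0.05, edgeR adjusted p = 0.653). The difference of the training change between ages was -0.02 (95% interval -0.20 to 0.15). None of these passed the adjusted threshold of 0.05.

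The subunits Vps72 and Dmap1 did not pass in any comparison either. Vps72, whose product YL1 binds the H2A.Z-H2B dimer, stood at 17.4, 14.8 and 18.1 CPM in young naive, 19.4, 18.5 and 15.6 CPM in young conditioned, 17.8, 18.3 and 19.5 CPM in old naive and 19.3, 17.6 and 17.6 CPM in old conditioned libraries. All 4 groups overlapped, and its log2 change with training was 0.10 in young and -0.03 in old mice (edgeR adjusted p = 0.883 and 0.965). Dmap1 stood at 16.8 ± 1.28, 17.0 ± 0.927, 18.3 ± 0.451 and 18.1 ± 0.605 CPM (SD, n = 3) in young naive, young conditioned, old naive and old conditioned libraries. Its change with training was 0.01 and -0.01, the smallest of the 9 members in young mice, with 95% intervals of -0.19 to 0.21 and -0.21 to 0.18.

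Znhit1, the zinc-finger HIT subunit of the SRCAP complex, stood at 24.2, 21.8 and 22.9 CPM in young naive libraries and at 26.9, 28.4 and 25.4 CPM in young conditioned libraries. In old naive libraries it stood at 26.1, 24.3 and 22.7 CPM, and in old conditioned libraries at 27.4, 21.4 and 22.1 CPM. The young groups did not overlap and the old groups did. The log2 change was 0.23 in young mice (SE 0.104, 95% interval 0.01 to 0.45, edgeR adjusted p = 0.737) and -0.05 in old mice (edgeR adjusted p = 0.941). The difference between these changes was -0.28 (SE 0.147, edgeR adjusted p = 0.723), so a difference in response between ages was not shown.

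Yeats4, whose YEATS-domain product GAS41 binds acylated histone tails, stood at 20.6, 18.5 and 22.3 CPM in young naive and 22.4, 20.3 and 21.3 CPM in young conditioned libraries. In old mice it stood at 20.1, 18.2 and 20.3 CPM in naive and 23.4, 23.7 and 20.0 CPM in conditioned libraries. The groups overlapped at both ages, with 1 old conditioned library among the naive ones. Its log2 change with training was 0.06 in young and 0.19 in old mice (SE 0.102 for each, edgeR adjusted p = 0.922 and 0.713).

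Ruvbl1 and Ruvbl2, which encode the AAA+ ATPases that form a ring in the SRCAP, p400 and INO80 complexes, did not share a pattern. Ruvbl1 stood at 27.2, 26.3 and 25 CPM in young naive, 26.5, 31.5 and 28.9 CPM in young conditioned, 31.9, 29.4 and 30.8 CPM in old naive and 33.0, 34.2 and 29.5 CPM in old conditioned libraries. Every old naive library was above every young naive one, and the conditioned groups overlapped. The log2 difference of old from young mice was 0.23 in naive libraries (SE 0.0905, 95% interval 0.04 to 0.42, edgeR adjusted p = 0.403) and 0.16 in conditioned libraries (edgeR adjusted p = 0.462). Averaged over conditions it was 0.19 (SE 0.0637, edgeR adjusted p = 0.165), the smallest adjusted p of any member. Ruvbl2 stood at 18.8 ± 2.79, 17.7 ± 2.13, 18.9 ± 0.799 and 17.2 ± 1.95 CPM (SD, n = 3) in the same 4 groups, and its old-minus-young difference averaged -0.02 (edgeR adjusted p = 0.943).

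On the removal side, Anp32e stood at 85.7, 91.5 and 86.5 CPM in young naive libraries and at 94.9, 104 and 97.4 CPM in young conditioned libraries. In old naive libraries it stood at 90.8, 106 and 104 CPM, and in old conditioned libraries at 97.8, 102 and 98.0 CPM. The young naive libraries were the lowest group: they lay below all young conditioned libraries and overlapped the old naive ones through a single library. The log2 change with training in young mice was 0.17 (SE 0.0687, 95% interval 0.02 to 0.32, edgeR adjusted p = 0.73), and the old-minus-young difference in naive mice was 0.19 (SE 0.0687, edgeR adjusted p = 0.361). Both values were taken against the same 3 young naive libraries. The change with training in old mice was -0.01 (edgeR adjusted p = 0.976), and the difference between ages was -0.18 (SE 0.0969, edgeR adjusted p = 0.723).

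Ino80, the ATPase of the INO80 complex, stood at 49.4, 46.6 and 52.1 CPM in young naive libraries and at 43.8, 47.0 and 49.1 CPM in young conditioned libraries. In old mice it stood at 45.9, 44.2 and 52.0 CPM in naive and 39.5, 43.9 and 46.6 CPM in conditioned libraries. All groups overlapped, with the lowest library among the old conditioned ones. Its log2 change with training was -0.08 in young and -0.13 in old mice (edgeR adjusted p = 0.867 and 0.764).

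Read as a list, the 9 members were spread on either side of 0 in most comparisons. With training in young mice 0 of 9 passed the adjusted threshold in edgeR, against 0.0278% of all tested genes, and 0 passed in DESeq2. At an unadjusted p under 0.05, Znhit1 and Anp32e were higher (3.45% of all genes) and Ep400 was lower (3.18%). The same 3 members were those whose young groups did not overlap, 2 higher and 1 lower, where 7.14% and 5.64% of all tested genes did the same. The members' median log2 change was 0.06, against -0.01 for all tested genes.

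With training in old mice 0 of 9 passed in edgeR and in DESeq2, against 0.0139% of all genes in edgeR. Only Ep400 had an unadjusted p under 0.05 (3.69% of all genes lower) and groups that did not overlap (6.22% lower), and the members' median was -0.03 beside 0 for all genes. For training averaged over the ages 0 of 9 passed, against 0.0764% of all genes, and Ep400 alone had an unadjusted p under 0.05 (4.17% of all genes lower). For the difference of the training change between ages 0 of 9 passed, as did 0% of all genes, and 0 members had an unadjusted p under 0.05, against 7.2% of all genes. There 1 of 9 members had a value above 0, against 50.2% of all genes, and the median was -0.06.

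Between old and young naive mice 0 of 9 passed in edgeR and in DESeq2, against 0.0555% of all genes. Ruvbl1 and Anp32e had an unadjusted p under 0.05 and were higher (5% of all genes). Ruvbl1 alone had groups that did not overlap (7.09% higher), and the members' median was 0.09. Between old and young conditioned mice 0 of 9 passed, against 0.0347% of all genes, 0 had an unadjusted p under 0.05 (13.4% of all genes), and the median was 0.00. For age averaged over conditions 0 of 9 passed, against 0.375% of all genes, and Ruvbl1 alone had an unadjusted p under 0.05 (7.33% of all genes higher). DESeq2 passed 0 members in the averaged comparisons and in the difference between ages. Between old and young conditioned mice DESeq2 gave no adjusted p for 7 of the 9 members and passed 0 of the others.

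**Figure D2:**
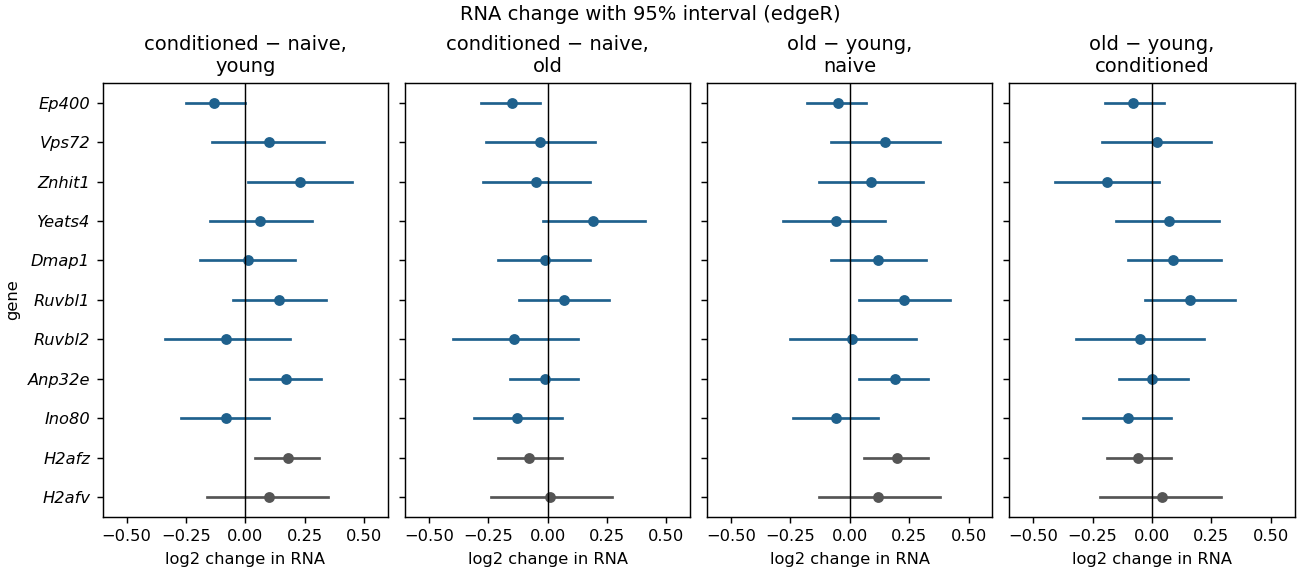
log2 change in RNA (horizontal axes) of the 9 members (blue) and of the H2A.Z genes H2afz and H2afv (grey), for training in young and in old mice and for age in naive and in conditioned mice, with 95% intervals from edgeR as lines. Every point lies between -0.19 and 0.23, and no change passed the adjusted threshold.

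The 2 genes for H2A.Z itself were read alongside. H2afz, which encodes H2A.Z.1, stood at 70.3, 74.5 and 70.8 CPM in young naive, 82.6, 81.2 and 79.9 CPM in young conditioned, 84.0, 79.3 and 83.7 CPM in old naive and 83.3, 74.6 and 76.5 CPM in old conditioned libraries. As for Anp32e, young naive was the lowest group, and for H2afz it did not overlap any other group. The gap to old conditioned libraries was small, 74.5 against 74.6 CPM. Of all tested genes 7.14% were likewise higher in young conditioned and 7.09% in old naive libraries. Against that shared young naive group the log2 difference of H2afz was 0.18 for training (SE 0.0635, edgeR adjusted p = 0.73) and 0.20 for age (SE 0.0635, edgeR adjusted p = 0.32). With training in old mice it was -0.08 (edgeR adjusted p = 0.806), and the difference of the training change between ages was -0.25 (SE 0.0896, edgeR adjusted p = 0.68). H2afv, which encodes H2A.Z.2, stood at 19.5 ± 0.977, 20.8 ± 1.41, 21.2 ± 2.47 and 21.4 ± 3.42 CPM (SD, n = 3) in young naive, young conditioned, old naive and old conditioned libraries, and all groups overlapped. The sources used here do not say how reads shared with processed copies of these genes were counted.

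The other genes of the pathway were read from 3 lists: 13 further subunits of the SRCAP and TIP60-p400 complexes, 11 further subunits of the INO80 complex, and 9 readers of H2A.Z or chaperones of H2A-H2B. All 33 were tested, 0 passed in edgeR or DESeq2 in any of the 7 comparisons, 1 to 3 per comparison had an unadjusted p under 0.05 (6.63% to 16.6% of all tested genes, depending on the comparison), and the lists' median log2 changes lay between -0.10 and 0.07. Between old and young conditioned mice DESeq2 gave no adjusted p for 10 of the 13, 10 of the 11 and 3 of the 9 genes of these lists. For Trrap, the scaffold subunit that TIP60-p400 shares with other acetyltransferase complexes, the level was 302, 324 and 322 CPM in young naive and 270, 269 and 299 CPM in young conditioned libraries. In old mice it was 277, 255 and 292 CPM in naive and 266, 253 and 256 CPM in conditioned libraries. Young naive libraries were above all the others, an order that was not counted over all genes. Of all tested genes 5.64% were lower without overlap after training in young mice, and 6.35% in old against young naive mice. Trrap differed by -0.16 on the log2 scale between old and young mice averaged over conditions (SE 0.0438, edgeR adjusted p = 0.113), and by -0.13 with training averaged over ages (SE 0.0438, edgeR adjusted p = 0.711).

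Actr6, an actin-related subunit of the SRCAP complex, stood at 21.8, 18.2 and 18.3 CPM in old naive and at 17.0, 15 and 16.2 CPM in old conditioned libraries, which did not overlap (6.22% of all tested genes lower). Its log2 change there was -0.28 (SE 0.111, edgeR adjusted p = 0.695), against 0.11 in young mice, and the difference between ages was -0.38 (SE 0.157, edgeR adjusted p = 0.68). Mbtd1, a TIP60-p400 subunit that binds methylated histone tails, had a log2 difference of -0.32 between old and young conditioned mice (SE 0.106, edgeR adjusted p = 0.269). In the same comparison Pwwp2a, a reader of H2A.Z nucleosomes, had a log2 difference of -0.16 (edgeR adjusted p = 0.35). Ino80c, a subunit of the INO80 complex, was at 16.6 ± 0.952 CPM in young naive and 19.6 ± 0.822 CPM in old naive libraries (SD, n = 3), a log2 difference of 0.24 (edgeR adjusted p = 0.407). With training in young mice the chaperone gene Nap1l4 had a change of 0.17 (edgeR adjusted p = 0.73) and the TIP60-p400 subunit Meaf6 one of 0.18 (edgeR adjusted p = 0.73).

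H2A.Z at the members' own promoters is described from the authors' deposited table, which gives log2 mean read levels per group, log2 folds, p-values and false discovery rates (FDR) and no value per library. Its folds are printed here as conditioned minus naive or old minus young. For training in old mice the plain difference of the group levels departs from the fold by -0.215, and in young mice by 0. The origin of this offset is not stated, so the sizes of young and old folds are not compared. All 7 members with a promoter peak had less H2A.Z after training at both ages, and 2 at each age passed the authors' FDR of 0.05: Vps72 and Dmap1 in young mice, Anp32e and Yeats4 in old mice. Lower values were the rule across promoters: 91.8% of 12204 promoter peaks in young and 98.3% in old mice were below 0 in the authors' deposited table, and 14.5% and 15.9% were lower with an FDR under 0.05. The members' median fold in the authors' deposited table was -0.64 in young and -1.11 in old mice, beside -0.63 and -1.03 for all promoter peaks, so the members as a group lay near the background.

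The peak of Vps72 (mm10, chr3:95110582-95111639, exonic, centre 69 bp from the start) had log2 levels of 6.42 and 4.56 in the naive and conditioned young groups of the authors' deposited table, and of 6.73 and 5.40 in the old groups. It fell by 1.86 in young mice (p = 0.000248, FDR = 0.00484 in the authors' deposited table), so that the conditioned level was 0.276 of the naive one. In old mice the fold in the authors' deposited table was -1.11 (FDR = 0.447).

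The peak of Dmap1 (mm10, chr4:117681790-117682560, exonic, centre 50 bp from the start) had log2 levels of 6.59, 4.92, 7.25 and 5.64 in young naive, young conditioned, old naive and old conditioned groups of the authors' deposited table. It fell by 1.67 in young mice (p = 0.000426, FDR = 0.00732 in the authors' deposited table). In old mice the fold of -1.39 had an FDR of 0.291 in the authors' deposited table. The young changes of Vps72 and Dmap1 ranked at percentiles 8.2 and 10.1 of all promoter peaks in the authors' deposited table, counted from the most negative.

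The peak of Anp32e (mm10, chr3:95928760-95930546, exonic, centre 397 bp from the start) had log2 levels of 7.18, 6.54, 8.24 and 6.61 in young naive, young conditioned, old naive and old conditioned groups of the authors' deposited table. Its fold in old mice was -1.41 (p = 0.000815, FDR = 0.0194 in the authors' deposited table), and the plain difference of the levels was -1.63. In young mice the fold was -0.64 (FDR = 0.357 in the authors' deposited table). The peak of Yeats4 (mm10, chr10:117223926-117224844, exonic, centre 122 bp from the start) had log2 levels of 7.60, 7.15, 8.56 and 7.32 in the same order in the authors' deposited table. Its fold in old mice was -1.02 (p = 0.00363, FDR = 0.0405 in the authors' deposited table), and the plain difference of the levels was -1.24. In young mice the fold was -0.45 (FDR = 0.492 in the authors' deposited table). The old changes of Anp32e and Yeats4 ranked at percentiles 17.2 and 50.6 of all promoter peaks in the authors' deposited table, counted from the most negative. Whether any member's H2A.Z response differed between ages was not tested, because the table holds no such comparison.

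For the remaining 3 members no fold passed the authors' FDR. Ruvbl1 (chr6:88465251-88465969) was at -1.22 in young mice (FDR = 0.0534) and -1.39 in old mice (FDR = 0.235) in the authors' deposited table. Ino80 (chr2:119476738-119478404) was at -0.59 (FDR = 0.368) and -0.86 (FDR = 0.0536) in the authors' deposited table. Ep400 (chr5:110769866-110771219) was at -0.33 (FDR = 0.717) and -0.95 (FDR = 0.0715) in the authors' deposited table, and had the smallest young fold of the 7.

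Peaks over the starts of the other 3 members were annotated to neighbours, and were found by position after the table was seen. The peak at the start of Srcap (chr7:127511824-127513010), annotated to 1700008J07Rik, had folds of -0.06 in young and -0.57 in old mice (FDR = 0.954 and 0.48 in the authors' deposited table). The peak shared by Znhit1 and Plod3 (chr5:136986791-136988098) had folds of -0.45 and -0.90 (FDR = 0.492 and 0.12 in the authors' deposited table). The peak shared by Ruvbl2 and Gys1 (chr7:45434668-45435334) had folds of -1.17 and -1.33 (FDR = 0.0804 and 0.286 in the authors' deposited table). None passed, and the change at Srcap in young mice was the nearest to 0 of the 10 peaks.

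**Figure D3:**
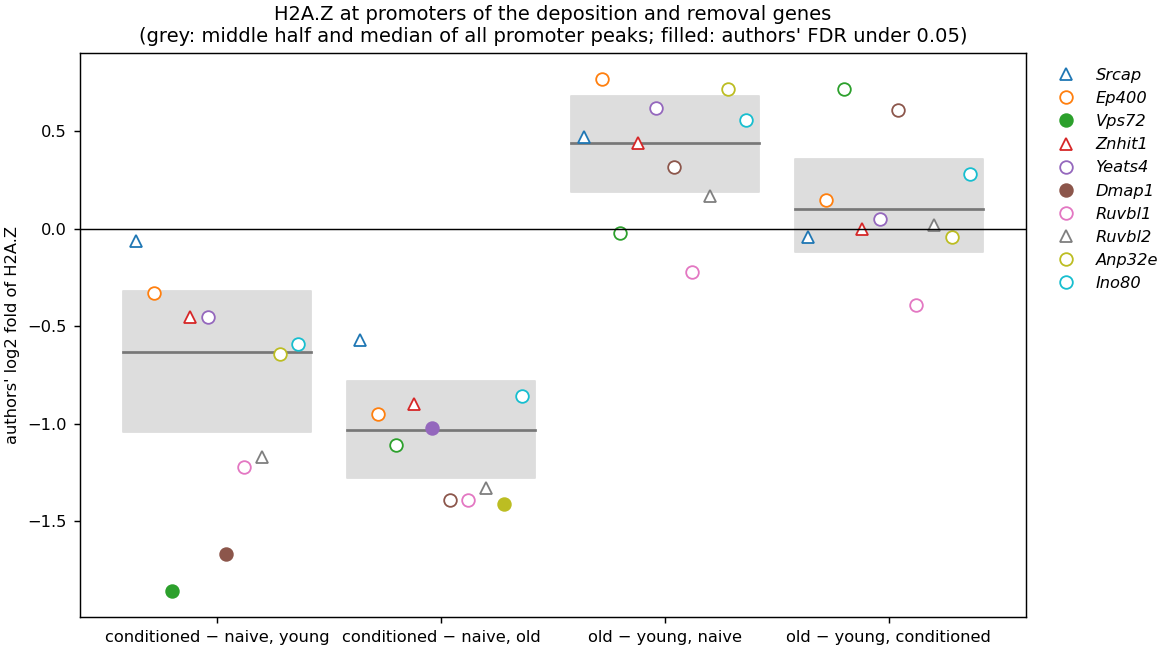
Authors' log2 fold of H2A.Z (vertical axis) at the promoters of the 10 genes for 4 comparisons (horizontal axis), with circles for peaks annotated to the gene, triangles for those found by position, filled symbols for an FDR under 0.05 and grey boxes for the middle 50% and median of all promoter peaks. All 7 circles lie below 0 for training at both ages, 2 at each age are filled, and none is filled for age. Of all promoter peaks 91.8% in young and 98.3% in old mice are below 0 for training. With an FDR under 0.05, 14.5% and 15.9% are lower.

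Between old and young mice 0 of 7 members passed in either condition, as did 0% of promoter peaks. In naive mice the members' median fold in the authors' deposited table was 0.56, beside 0.44 for all promoter peaks, of which 10.8% were below 0. Ep400 at 0.77 (FDR = 0.36), Anp32e at 0.72 (FDR = 0.418), Yeats4 at 0.62 (FDR = 0.461), Ino80 at 0.56 (FDR = 0.496) and Dmap1 at 0.32 (FDR = 0.996) were above 0, and Vps72 at -0.02 and Ruvbl1 at -0.22 (FDR = 0.999 and 0.996) below it, in the authors' deposited table. The plain difference of the group levels is 0.334 higher than the fold in this comparison, which puts Vps72 at 0.31 and Ruvbl1 at 0.11, so the sign of these values depends on the scale. In conditioned mice the members' folds in the authors' deposited table ran from -0.39 (Ruvbl1) to 0.72 (Vps72), with a median of 0.15 beside 0.10 for all promoter peaks, and 2 of 7 were below 0, against 37.9% of promoter peaks. The plain difference of the group levels is 0.118 higher here and puts Anp32e at 0.07 instead of -0.04, so that 1 of 7 is below 0 on that scale.

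The members' peaks also differed in read level, which was not scaled here to the width of the peak. In each group the log2 level of Ino80 (8.01, 7.42, 8.90 and 7.82 in young naive, young conditioned, old naive and old conditioned groups of the authors' deposited table) stood at percentiles 93.2 to 96.3 of all promoter peaks, and that of Vps72 at percentiles 16.1 to 34.6. The median promoter level was 6.79, 6.13, 7.58 and 6.32 in the same order in the authors' deposited table. The peak of Ino80 was 1667 bp wide and that of Vps72 1058 bp, beside a median of 986 bp for promoter peaks. Whether width has a part in these levels was not tested. The peaks of Yeats4, Anp32e and Ino80 were called in all 3 libraries of every group, 3 of 7 members, beside 38.4% of promoter peaks. All 7 peaks overlapped a region of H3K4me3, a mark of active starts, in the authors' deposited table, as did 93.8% of promoter peaks. H3K27ac, a mark of active promoters and enhancers, overlapped 6 of 7 (66.8% of promoter peaks), Ruvbl1 being the exception. H3K4me1 overlapped 4 of 7 (86.7%), and the Polycomb mark H3K27me3 overlapped 0 of 7 (34.8%). The sources used here do not state the origin of these mark regions.

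Away from the starts, Anp32e had a second peak 3269 bp beyond the gene (mm10, chr3:95950656-95951837, intergenic). It fell by 4.45 with training in young mice (FDR = 0.0392 in the authors' deposited table), from a log2 level of 6.65 to 2.2. Of all consensus peaks 13.2% were lower in young mice with an FDR under 0.05. The level of 2.2 is low beside the median promoter level of 6.13 in the young conditioned group, so the size of this fold is uncertain. In old mice the fold of this Anp32e peak was -1.34 (FDR = 0.458 in the authors' deposited table). Ruvbl1 had an intronic peak with folds of 0.31 and 0.66 (FDR = 0.834 and 0.7 in the authors' deposited table). Each is 1 peak, named after its values were seen.

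No member's RNA passed in any comparison, so RNA and H2A.Z could not pass together. Their values are set side by side as a description. All 7 members with a promoter peak had less H2A.Z after training at both ages, as did 91.8% of all promoter peaks in young and 98.3% in old mice. Vps72 and Dmap1, whose decrease passed the authors' FDR in young mice, had RNA changes of 0.10 and 0.01 there. Anp32e and Yeats4, whose decrease passed the authors' FDR in old mice, had RNA changes of -0.01 and 0.19 there. Ep400, with the lowest RNA changes with training at both ages, had no H2A.Z change that passed.

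The members' RNA levels were also compared with signs of tissue and RNA composition. A score of 7 RNAs retained in the nucleus, such as Malat1 and Meg3 (mean log2 CPM), had means of 9.42 ± 0.47 and 9.30 ± 0.17 for naive and conditioned young mice, and of 9.01 ± 0.29 and 8.97 ± 0.33 for naive and conditioned old mice (SD, n = 3). Over the 12 libraries the level of Ino80 went with that score, with a Pearson r of 0.78 (permutation p = 0.0031, 0.0558 adjusted over 18 relations) and a Spearman rho of 0.78 (permutation p = 0.00445, 0.0801 adjusted). The permutations shuffled all 12 libraries without regard to group. These p-values therefore do not tell differences between groups from differences between libraries within a group. Without the 2 libraries farthest from the median score r was 0.67 for Ino80, and in the same 10 libraries it was -0.72 for Ruvbl2 and -0.60 for Dmap1, which stood at -0.25 and -0.54 over all 12. There r also went from 0.10 to 0.56 for Yeats4 and from 0.44 to 0.21 for Ep400, so values moved in both directions. No relation of a member with this score or with the choroid plexus score passed the adjustment. With the nuclear score in the fit, the old-minus-young log2 difference of Ino80 in naive mice went from -0.06 to 0.04. Whether the score has a part in the other values was not tested beyond that fit.

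**Figure D4:**
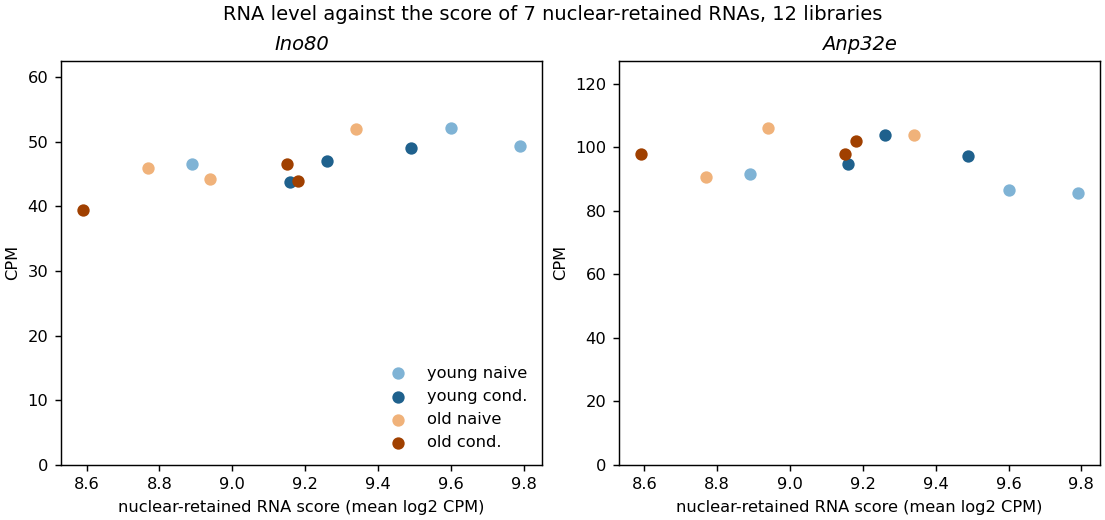
RNA level in CPM (vertical axes, from 0) of Ino80 and Anp32e against the mean log2 CPM of 7 nuclear-retained RNAs (horizontal axes), with a point for each of the 12 libraries coloured by group. The Pearson r is 0.78 for Ino80 and -0.32 for Anp32e. Neither passed the adjustment for the number of relations, and a difference between them was not tested.

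Across the 12 libraries the members did not move as a block. Pearson correlations of log2 CPM between pairs of members ran from -0.58 (Ep400 with Ruvbl1, and Ep400 with Yeats4) to 0.70 (Ep400 with Ino80), and Ruvbl1 with Anp32e stood at 0.62. These are descriptions over 12 libraries that share group, depth and composition. The genes whose levels followed Ep400 most closely were Huwe1 (r = 0.938), Vps13d (0.905) and Brca2 (0.9), of which the first encodes a ubiquitin ligase and the last a DNA repair protein. For Ino80 they were Glmn (r = 0.945), Pms2 (0.945), a mismatch repair gene, and A830082N09Rik (0.941). For Anp32e they were Stat5a (r = 0.881), a transcription factor of cytokine signalling, Havcr2 (0.871) and Lrrc61 (0.851).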

How the data were processed

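RNA was deposited as raw counts per gene symbol for 12 libraries, and H2A.Z as 1 table of consensus peaks on mm10 for 12 immunoprecipitated libraries; the 12 input libraries were not analysed here. Per the submitters' processing notes the tools included HTSeq 0.6.1p2, DiffBind 1.12.2, edgeR 3.8.6, MACS2 2.0.10, TopHat, Trim Galore 0.4 and Bowtie2 2.2.1, with mm9 and mm10 as builds. The sources used here do not give their roles, the annotation, the strand setting or the scaling of the peak levels. Per the file headers, the authors gave the peak levels and folds as log2 values, with p-values and FDR as p-values of their own test and, as other columns, calls per group and distances. The table names its conditioned groups with a letter that the labels do not use, and these were read as conditioned by exclusion.

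From the counts as deposited, edgeR 4.0.16 (R 4.3.3, limma 3.58.1) fitted all 12 libraries as 4 group means with TMM factors, its filter on low counts and quasi-likelihood tests, adjusted over 14405 genes at a threshold of 0.05. The edgeR fit alone was tested on simulated counts, for training in young mice and with changes larger than those of any member. That test does not show whether changes of the members' size would be found. Without strand, reads of overlapping genes cannot be told apart. Alternatives were DESeq2 1.42.0, other scaling, no filter, fewer groups, a score as covariate, each library left out, and other distances, FDR and scales for the peaks. Libraries within groups differed by more than sampling noise. Peaks within 1000 bp of a start counted as promoter peaks. The members, lists and markers were chosen with earlier results of these data known. Named throughout were the members, H2afz and H2afv, and in each other list genes among the 3 with the smallest p per comparison; the likeness is the 3 genes of highest r. Promoters were those of members with the lowest FDR, from RefSeq on GRCm38.p6, where 9 of 10 members matched. Tables and figures were made with Python 3.11.15, pandas 2.3.3, numpy 2.4.6 and matplotlib 3.10.9.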

Additional observations from a re-analysis of the deposited data

How the results depend on the processing

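No member passed edgeR's or DESeq2's adjusted threshold of 0.05 under any of 20 other settings of the RNA test, where DESeq2 gave 7 of 9 members no adjusted p for age in conditioned mice, and the smallest adjusted p was 0.122 (Ruvbl1, age averaged over conditions, without old conditioned library 65). Of 1233 member values 1159 kept their direction, and those that did not had a reported size of at most 0.08. Counts over all genes moved more: for age averaged over conditions 54 genes passed, 236 in DESeq2, 391 without young naive library 81 and 13 without old conditioned library 61 or 63. Over all settings the count ran from 0 to 16 for training in young mice (4 reported), 0 to 9 in old mice (2 reported) and 7 to 30 averaged over ages (11 reported). It ran from 1 to 34 for age in naive mice (8 reported), 2 to 106 in conditioned mice (5 reported) and 0 to 1 for the difference between ages (0 reported). The 95% interval of Vps72 for training in young mice, -0.14 to 0.33, shows the precision at the depth of a gene of low counts. No paired analysis was possible because no RNA library shares its number with another group and the peak table has no values per library.

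The values that changed sign were all near 0, and the cause was not tested. With upper-quartile factors Dmap1 was at -0.01 for training in young mice and -0.01 for training averaged over ages, Ruvbl2 at -0.01 for age in naive mice and Yeats4 at -0.01 for age averaged over conditions. With library totals only these were 0 for Dmap1 averaged over ages, -0.02 for Ruvbl2 and -0.02 for Yeats4, and Anp32e was at -0.01 for age in conditioned mice. With the choroid plexus score in the fit Anp32e was at 0.02 for training in old mice, Dmap1 at -0.02 for training averaged over ages, and Yeats4 at -0.04 and Ruvbl2 at 0.01 for age averaged over conditions. With the nuclear score Dmap1 was at 0 for training averaged over ages, Ruvbl2 at -0.07 and Ino80 at 0.04 for age in naive mice, and Ino80 at 0.01 for age averaged over conditions. In DESeq2 Dmap1 was at 0 for training averaged over ages. Without the young naive library of the highest choroid score and the old conditioned library of the lowest nuclear score, a setting chosen with earlier results known, Yeats4 was at -0.01 for training in young mice and -0.05 for age averaged over conditions. In the same setting Dmap1 was at 0.01 for training in old mice, Vps72 at -0.03 for training averaged over ages and -0.03 for age in conditioned mice, and Ino80 at 0.06 for the difference between ages.

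With each library left out in turn, training in young mice gave -0.01 to 0.13 for Yeats4, -0.04 to 0.08 for Dmap1 and -0.19 to 0.02 for Ruvbl2. Training in old mice gave -0.08 to 0.01 for Vps72, -0.17 to 0.02 for Znhit1, -0.04 to 0.01 for Dmap1 and -0.08 to 0.03 for Anp32e. Training averaged over ages gave -0.01 to 0.07 for Vps72 and -0.03 to 0.03 for Dmap1. Age in naive mice gave -0.14 to 0.01 for Yeats4 and -0.10 to 0.11 for Ruvbl2. Age in conditioned mice gave -0.06 to 0.09 for Vps72, -0.15 to 0.01 for Ruvbl2 and -0.03 to 0.05 for Anp32e. Age averaged over conditions gave -0.03 to 0.04 for Yeats4 and -0.07 to 0.03 for Ruvbl2. The difference between ages gave -0.07 to 0.03 for Ep400, -0.09 to 0.03 for Dmap1, -0.16 to 0.05 for Ruvbl2 and -0.10 to 0.03 for Ino80.

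For H2A.Z at the members' promoters, an FDR of 0.01 in the authors' deposited table left 2 members lower after training in young mice and 0 in old mice. The share of all promoter peaks at that FDR was not taken, so these counts have no background beside them. Differences of the group levels gave member medians of -1.33 for old mice after training, and of 0.89 (naive) and 0.27 (conditioned) for old against young. With the 3 peaks found by position the medians for age were 0.46 and 0.04. A shorter or longer limit on the distance to the start changed no count.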
